A study of Drosophila melanogaster with 7 samples.

Results

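Transcripts of the cytosolic glutathione S-transferase (GST) genes were measured in dissected brains of Drosophila melanogaster by RNA-seq of transcript 3' ends. The members are the genes whose symbol names a class letter (D, E, O, S, T or Z) and a number, which gave 35 of the 14476 genes on usable lines of the deposited table. They comprise 11 Delta, 14 Epsilon, 3 Omega, 1 Sigma, 4 Theta and 2 Zeta genes. Of the 35, 21 had a mean of at least 10 normalized counts over the 7 libraries and were tested, and 14 had a lower mean and are given as levels. GstE1, the marker gene of the family, had reads in every library.

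Cytosolic GSTs are dimeric enzymes that join the tripeptide glutathione to electrophilic compounds, including lipid peroxidation products, plant toxins and insecticides, so that these can be exported or broken down. The Delta and Epsilon classes expanded in insects and lie in gene clusters, while Omega, Sigma, Theta and Zeta members have relatives in many animals. In flies, many of these genes respond to the transcription factor CncC, which the adaptor Keap1 holds in check. GstD1 is widely used as a reporter of oxidative and xenobiotic stress.

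The control flies (strain Actin-GAL4 UAS-sh8MM; 5 libraries) expressed a hairpin carrying 8 mismatches, and the knockdown flies (strain Actin-GAL4 UAS-sh-circMbl; 2 libraries) expressed a hairpin against circMbl, the circular RNA of the muscleblind gene. The Actin-GAL4 driver, which all libraries share, is active in nearly all tissues, so the knockdown was not limited to the brain. All titles name day 3, and neither the age nor the sex of the flies nor the number of brains per library is stated. The design sets brains of flies with the circMbl hairpin against brains with the control hairpin.

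Control libraries held 3732675 to 5546121 counted reads and knockdown libraries 3260649 and 3308580. The muscleblind gene itself (mbl) stood between 3323 and 4122 normalized counts in controls and at 2770 and 2304 in knockdown libraries, a difference that did not pass (log2 fold change -0.49; limma, adjusted p = 0.0694). These reads come from polyadenylated ends and do not measure the circle. Titles carry the code L7 for control replicates 1, 4 and 5, L5 for control replicates 2 and 3, and L2 with a further differing code for both knockdown libraries, so what these codes stand for cannot be told apart from genotype. Control replicates 2 and 4 carry title number 3 and control replicates 3 and 5 carry title number 2, as knockdown replicates 2 and 1 do, and no label says whether equal numbers share RNA. Separate flies are not stated for the libraries, so each p-value reflects only how these libraries vary, possibly for technical reasons. Of the brain markers, elav, nSyb, brp and Syt1 (neurons) and alrm, moody, wrapper and Gs2 (glia) had reads in all libraries. Among them only nSyb, a synaptic vesicle gene, passed the test between knockdown and control, where 6.11% of all genes did. It stood at 4844 ± 632 normalized counts in controls (SD, n = 5) and 11826 ± 897 in knockdown libraries (SD, n = 2). In bulk tissue, fewer cells of a type and less RNA per cell cannot be told apart.

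In control brains a few genes made up most GST transcripts. Because each transcript is read at its 3' end, levels of different genes are compared as normalized counts without division by length. GstD1 was highest, with 1381 ± 339.5 normalized counts (SD, n = 5), which is rank 574 among all genes. GstE12 followed with 632.0 ± 31.8, GstE2 with 472 ± 102 and GstE1 with 309 ± 39.3. The control ranges of GstD1 and GstE12 did not overlap, nor did those of GstE12 and GstE2, whereas those of GstE2 and GstE1 did. These 4 genes held between 65.5% and 71.6% of the summed GST level in each control library. The Omega gene GstO2 came next with 197 ± 9.28 normalized counts, above the ranges of all lower genes. From GstZ2 (149 ± 20.4) downward, each gene's control range overlapped that of the next in order. With levels divided by the longest annotated transcript, GstD1 still led, GstE2 stood above GstE12, and GstE1 and GstO2 kept places 4 and 5.

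**Figure D1:**
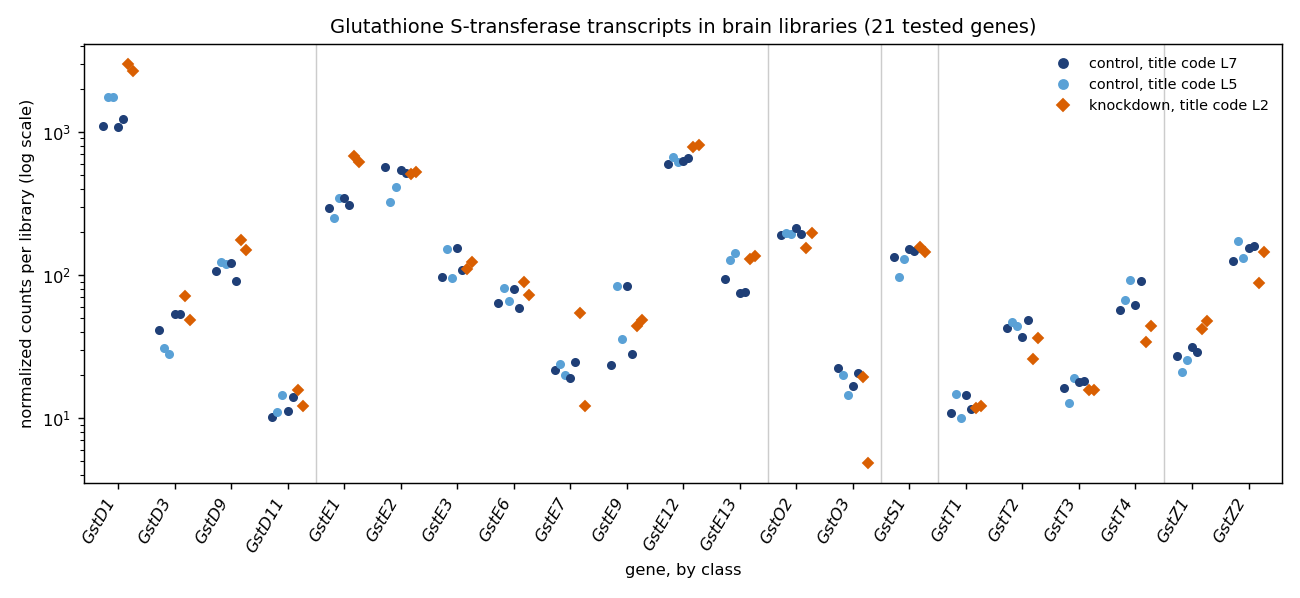
Normalized counts (log scale) of the 21 tested GST genes in each of the 7 libraries, ordered by class. Circles are control libraries of code L7 (dark blue) or L5 (light blue) and diamonds are knockdown libraries. For GstD1 and GstE1 both knockdown libraries lie above all 5 controls.

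The single Sigma gene, GstS1, encodes an enzyme abundant in fly flight muscle. Controls 1 to 5 held 133, 96.0, 129, 152 and 147 normalized counts of GstS1, and the knockdown libraries 157 and 145. The groups overlapped (log2 fold change 0.22 ± 0.19, SE; limma, adjusted p = 0.521). All 4 muscle markers listed had reads in every library. Their summed level was 649 to 1201 in controls and 469 and 642 in knockdown libraries. Of the 4, 2 fell, where 2.63% of all genes did. These were Mlp60A and TpnC41C, with log2 fold changes of -0.99 and -1.35 (limma, adjusted p = 0.0397 and 0.0342). The part of muscle in the GstS1 values was not tested.

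Of the 14 low members, 7 are Delta, 6 are Epsilon and 1 is Omega. Reads were found in all 7 libraries for 8 of them. GstD6 had no read in any library, which allows a share of up to 3 reads of the 29168212 counted over all libraries, counting error only. GstD4 and GstD7 had 1 read each over the 7 libraries, GstD5 had 4, GstE10 had 8 and GstD10 had 9. GstE4, with a mean of 9.99 normalized counts over the 7 libraries, lay just below the limit, and GstT1, with 12.2, was the nearest above it. GstE14, also called nobo, acts in ecdysteroid synthesis in the larval ring gland. In these adult brains it held 39 reads over the 7 libraries.

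Of the 35 genes, 21 lie in 2 clusters. The GstD cluster on chromosome 3R (BDGP6, the dm6 assembly, from 12364776 to 12385624) has 11 members over 20.8 kb, of which 4 were tested. The cluster of GstE1 to GstE10 on 2R (from 18396638 to 18409835) has 10 members over 13.2 kb, of which 6 were tested. Within each cluster, neighbours differed widely in level. GstD1 (3R from 12367817 to 12369268) lies 252 bases from GstD9, which stood at 112 ± 13.8 normalized counts in controls, and 2702 bases from GstD2, at 3.46 ± 1.25. GstE1 (2R from 18398393 to 18399223) lies 262 bases from GstE2. It also overlaps the opposite-strand gene GstE10 by 127 bases, none of them in the last 300 bases of either gene.

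**Figure D2:**
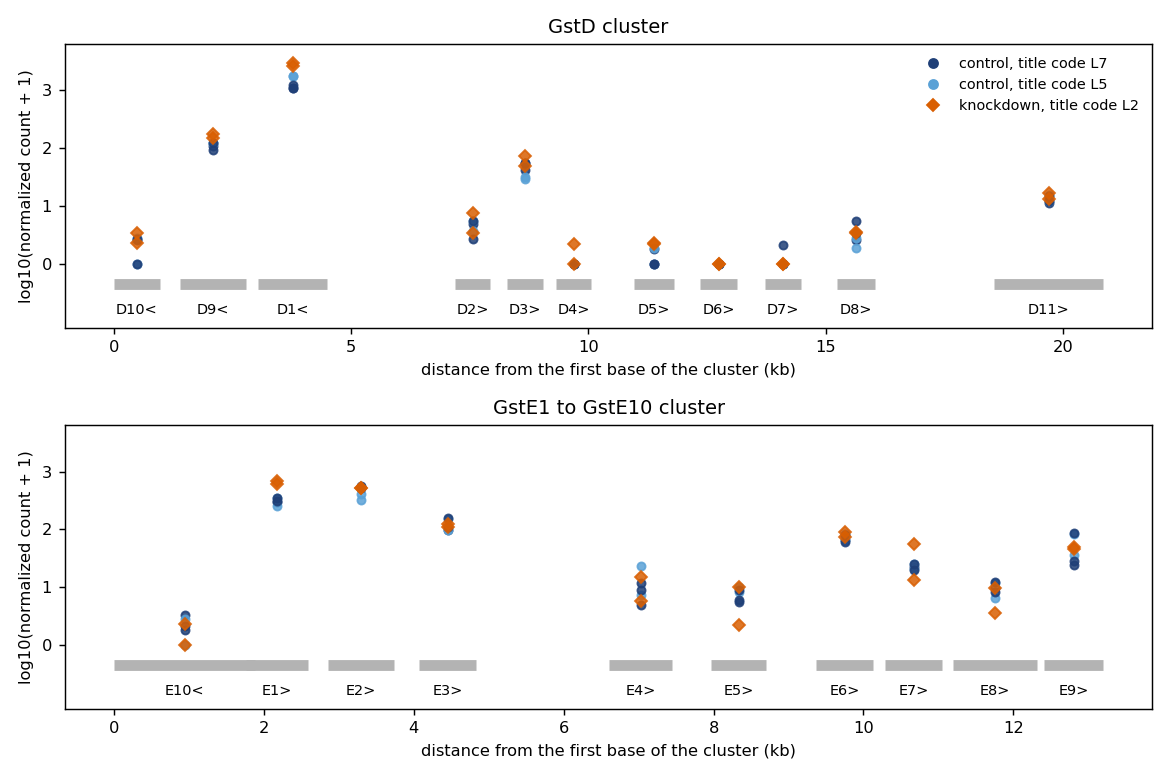
Levels along the 2 gene clusters, as log10(normalized count + 1) in each library, against the distance from the first base of the cluster in kb. Grey bars are genes, with the strand as > or <, and symbols are libraries as in the plot of levels by class. GstD1 and GstD9 stand above the other Delta genes, and GstE1 and GstE2 above the other Epsilon genes of the cluster.

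Transcripts of GstD1 and GstE1 rose in knockdown brains, and no GST gene fell by the test. GstD1 was 2.08-fold and GstE1 2.10-fold higher on the log2(value + 1) scale. Of the 21 genes tested, 2 rose, 0 fell and 19 did not pass (limma over 7287 genes, adjusted p under 0.05). Of all genes tested, 6.11% passed in either direction, 3.47% being higher and 2.63% lower in knockdown, against which the members' count is 2 in 21 (9.52%). At an unadjusted p under 0.05 there were 7 of the 21, where 25.5% of all genes had such a p. By voom on reads recovered from the table the same counts, 2 and 0, were found. The median log2 fold change was 0.18 over the 21 members and -0.022 over all genes tested.

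GstD1, whose product can break down DDT, held 1096, 1753, 1742, 1080 and 1236 normalized counts (controls 1 to 5). The knockdown libraries held 2980 and 2655. Both knockdown libraries were above every control, and the L5 controls (replicates 2 and 3) were above the L7 controls. The log2 fold change was 1.06 ± 0.22 (SE; limma, adjusted p = 0.0312). Leaving out control replicate 1, 4 or 5 ended the call (limma, adjusted p = 0.055, 0.0606 and 0.0758), as did leaving out knockdown replicate 1 (0.24) or 2 (0.169). With the controls of each code as their own group, an analysis of the same libraries in 3 groups, the log2 difference was 0.69 against L5 (limma, adjusted p = 0.00155) and 1.31 against L7 (limma, adjusted p = 1.26e-05). The L5 and L7 controls differed from each other by 0.62 (limma, adjusted p = 0.000807).

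GstE1, an Epsilon gene that lies between GstE10 and GstE2, held 294, 252, 346, 345 and 310.3 normalized counts (controls 1 to 5). The knockdown libraries held 678 and 615. The groups were separated, and the ranges of the L5 and L7 controls overlapped. The log2 fold change was 1.07 ± 0.15 (SE; limma, adjusted p = 0.0092). Against L5 and L7 controls it was 1.13 and 1.03 (limma, adjusted p = 0.000824 and 0.000326), and between the control codes (L5 minus L7) it was -0.10 (limma, adjusted p = 0.637). Leaving out knockdown replicate 1 or 2 ended the call (limma, adjusted p = 0.132 and 0.0922), and leaving out any 1 control did not.

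**Figure D3:**
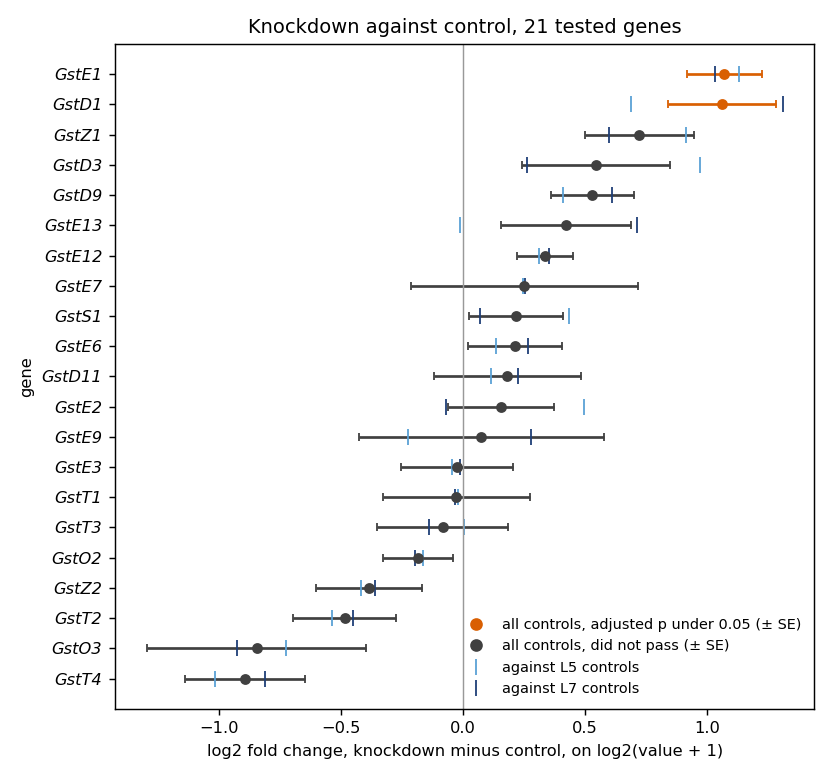
Log2 fold change of knockdown against control for the 21 tested genes, with points and bars for the estimate ± SE against all 5 controls and ticks for the difference against L5 or L7 controls alone. GstD1 and GstE1 (orange) passed at 1.06 and 1.07, and GstT4 had the lowest value, -0.89, which did not pass.

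The tested neighbours of GstE1 and GstD1, which are GstE2 and GstD9, did not pass against all controls, and GstE10 and GstD2 were too low to be tested. For GstE2, controls 1 to 5 held 565, 321, 414, 539 and 519 normalized counts, and knockdown libraries 509 and 520.1. Its values overlapped between groups, with a log2 fold change of 0.16 ± 0.22 (SE; limma, adjusted p = 0.696). Within a library, where scaling between libraries cancels, the ratio of GstE1 to GstE2 lay between 0.52 and 0.835 in controls and was 1.33 and 1.18 in knockdown replicates 1 and 2. GstE1 was below GstE2 in every control and above it in both knockdown libraries. In the analysis of 3 groups GstE2 was higher in knockdown than in L5 controls (log2 difference 0.50; limma, adjusted p = 0.0202), and against L7 controls the sign turned (-0.071; limma, adjusted p = 0.678). GstE2 also differed between the control codes (L5 minus L7, -0.57; limma, adjusted p = 0.00472).

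GstD9 held 107, 123, 120.2, 122 and 90.5 normalized counts in controls and 174 and 150 in the knockdown libraries. Its groups did not overlap, yet the log2 fold change of 0.53 ± 0.17 (SE) did not pass (limma, adjusted p = 0.0922). Against L7 controls in the analysis of 3 groups it passed (0.61; limma, adjusted p = 0.0115), and against L5 controls it did not (0.41; limma, adjusted p = 0.110). The ratio of GstD1 to GstD9 was between 8.85 and 14.5 in controls and 17.1 and 17.7 in knockdown libraries. GstD3, the Delta gene next to GstD2, stood at 41.2, 31.1, 28.2, 53.7 and 53.5 against 71.5 and 48.7, with overlapping groups (log2 fold change 0.54 ± 0.30, SE; limma, adjusted p = 0.301). It passed against L5 controls (0.97; limma, adjusted p = 0.0207) and not against L7 controls (0.26; limma, adjusted p = 0.416), and it differed between control codes (L5 minus L7, -0.71; limma, adjusted p = 0.0398). GstD11 stood between 10.1 and 14.6 in controls and at 15.6 and 12.2 in knockdown libraries.

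Among Epsilon genes outside the cluster, GstE12 (2R from 24766718 to 24768172) held 592, 671, 615, 625 and 656 normalized counts in controls and 786 and 809 in knockdown libraries. The groups were separate and the control spread was narrow, but the log2 fold change of 0.34 ± 0.11 (SE) did not pass (limma, adjusted p = 0.106). The 3' end of GstE12 overlaps the opposite-strand gene CG3894 by 33 bases. CG3894 had a log2 fold change of 0.54 ± 0.17 (SE, limma, adjusted p = 0.0895), and reads within the overlap cannot be assigned without a stated strand setting. GstE13 stood at 93.3, 126, 143, 74.96 and 75.7 in controls and at 129.97 and 136 in knockdown libraries. The knockdown values lay among those of the L5 controls and above those of the L7 controls. Its log2 difference was -0.013 against L5 (limma, adjusted p = 0.966) and 0.71 against L7 (limma, adjusted p = 0.00449).

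Of the 4 Theta genes none passed. Their log2 fold changes were all negative, though GstT1 and GstT3 lay near 0 and changed sign under some alternatives (GstT1 to 0.00585 by voom). GstT4, on the X chromosome, stood at 56.8, 66.8, 92.9, 61.5 and 91.4 normalized counts in controls and at 33.8 and 43.8 in knockdown libraries. Both knockdown values were below every control, with a log2 fold change of -0.89 ± 0.245 (SE; limma, adjusted p = 0.0637). Against L5 and L7 controls in the analysis of 3 groups it passed (-1.01 and -0.81; limma, adjusted p = 0.0227 and 0.0258). GstT2 was 42.8, 46.6, 43.7, 36.9 and 48.6 in controls and 25.99 and 36.5 in knockdown libraries, again without overlap (log2 fold change -0.48 ± 0.21, SE; limma, adjusted p = 0.19). The 3' end of GstT2 overlaps the opposite-strand gene CG12926 by 223 bases, and CG12926 had a log2 fold change of -0.55 ± 0.17 (SE; limma, adjusted p = 0.0894). Without a stated strand setting, reads of such a pair cannot be told apart. GstT1 and GstT3 had log2 fold changes of -0.028 and -0.083.

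The Zeta class encodes maleylacetoacetate isomerase, an enzyme of tyrosine breakdown. Its 2 genes, GstZ1 and GstZ2, lie 268 bases apart on 3R. GstZ1 stood at 27.2, 21.04, 25.5, 31.3 and 28.8 normalized counts in controls and at 41.6 and 47.5 in knockdown libraries, without overlap (log2 fold change 0.72 ± 0.22, SE; limma, adjusted p = 0.0865). GstZ2 stood at 124, 174, 132, 156 and 160 against 88.4 and 145, with overlap (-0.38 ± 0.22, SE; limma, adjusted p = 0.307). The ratio of GstZ1 to GstZ2 was 0.121 to 0.219 in controls and 0.471 and 0.328 in knockdown libraries, without overlap.

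The Omega class has cysteine in its active site and acts in thiol transfer. GstO2 held 191, 195, 194, 214 and 193 normalized counts in controls, the narrowest relative spread of the tested members (4.7% coefficient of variation), and 153 and 196 in knockdown libraries. The second knockdown library lay within the control range (log2 fold change -0.18 ± 0.14, SE; limma, adjusted p = 0.462). GstO2 overlaps se (sepia), the Omega gene of eye pigment synthesis, tail to tail by 61 bases, and se held 1.65 to 14.6 normalized counts in the controls. GstO3 held 22.6, 20.1, 14.6, 16.8 and 20.6 against 19.5 and 4.87, the latter from 4 reads (-0.85 ± 0.45, SE; limma, adjusted p = 0.277). The first knockdown library lay within the control range of GstO3.

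Groups did not overlap for 7 of the 21 tested genes, 5 higher (GstD1, GstD9, GstE1, GstE12 and GstZ1) and 2 lower (GstT2 and GstT4). Over all genes tested 32.4% showed no overlap, 16.6% higher and 15.9% lower. In the analysis of 3 groups, 6 of the 21 passed against L5 controls, 5 higher and 1 lower, where 21.6% of all genes passed, 12.1% higher and 9.47% lower. Against L7 controls 6 passed, again 5 higher and 1 lower, where 33.6% of all genes did, 15% higher and 18.5% lower. GstD1, GstE1 and GstT4 passed against both in the same direction, 3 of 21, where 11.1% of all genes did. Between L5 and L7 controls 4 members differed, GstD1 and GstE13 higher and GstD3 and GstE2 lower in L5, while 28.2% of all genes passed, 11.3% higher and 16.9% lower.

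Summed over the 35 genes, GST transcripts came to 3678, 4336, 4355, 3955 and 3937 normalized counts (controls 1 to 5), with 6250 and 5905 for the knockdown libraries. Both knockdown sums exceeded the highest control. Without GstD1 and GstE1 the sum lay between 2267 and 2531 in controls and at 2592 and 2635 in knockdown libraries. The ratio of the group means was then 1.11, where for the whole family the means were 4052 and 6078. GstD1 alone took 27.3% to 40.4% of the GST sum in controls and 47.7% and 45.0% in knockdown libraries. The Theta genes took 3.25% to 4.31% in controls and 1.39% and 1.84% in knockdown libraries. Omega took 4.98% to 6.11% in controls and 2.91% and 3.53% in knockdown libraries, and Zeta 3.62% to 4.79% against 2.08% and 3.26%. Epsilon took 40.5% to 49.8% against 39.1% and 40.2%, and the Sigma shares overlapped. A larger GST sum lowers the share of any class that rises less than the sum does.

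**Figure D4:**
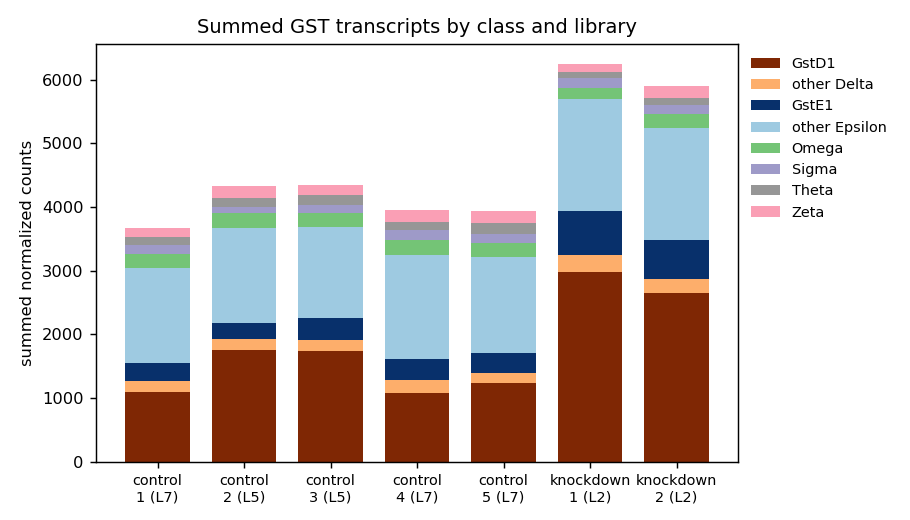
Summed normalized counts of all 35 GST genes in each library, stacked by class, with GstD1 and GstE1 shown apart from the other Delta and Epsilon genes. Totals run from 3678 to 4355 in controls and are 6250 and 5905 in knockdown libraries.

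Among control libraries, some Epsilon genes moved with the number in the library title and not with the code L5 or L7. GstE9 held 83.2 and 83.9 normalized counts in the controls of title number 3 (replicates 2 and 4), 35.5 and 28.0 in those of title number 2 (replicates 3 and 5) and 23.3 in that of title number 1 (replicate 1). GstE3 held 151 and 154 in title number 3, 95.6 and 109 in title number 2 and 97.2 in title number 1. GstE14, at low counts, held 6.403 and 12.3 in title number 3 1.82 and 0.823 in title number 2 and 3.89 in title number 1. These genes, like GstD3, GstE13 and GstE7, were picked after their values were seen, and no test was made of title number.

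In the knockdown libraries GstE9 held 44.2 (title number 2) and 48.7 (title number 3), and GstE3 held 110.5 and 123. For these 2 genes the knockdown libraries differed by less than the controls of title numbers 2 and 3 did. GstE14 held 1.30 (title number 2) and 14.6 (title number 3), from 1 and 12 reads, in the same order as in controls. The summed eye markers (ninaE, trp, Arr1 and Arr2, 4 of 5 listed) stood at 6114 and 6156 in the controls of title number 3, at 3033 and 2896 in those of number 2 and at 2295 in that of number 1. They stood at 2733 and 6301 in knockdown replicates 1 and 2, and none was at 0 in any library. For Arr2 alone, control replicate 3 (title number 2, 975) stood above control replicate 4 (title number 3, 967). Among controls, the summed fat body markers (Yp1, Yp2, Yp3, Lsp2, fit and Fbp1) were also highest in title number 3, at 35906 and 26919. They stood at 20685 and 14938 in title number 2 and at 15600 in title number 1. In knockdown replicates 1 and 2 they stood at 50158 and 43997. The part of eye or fat body in the GstE9, GstE3 and GstE14 values was not tested. The 3' end of GstE9 overlaps that of imd, a gene of innate immune signaling on the opposite strand, by 40 bases. In controls imd stood at 52.9, 58.5, 54.6, 33.6 and 59.3 normalized counts, which does not follow title number, and in the knockdown libraries at 18.2 and 29.2.

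**Figure D5:**
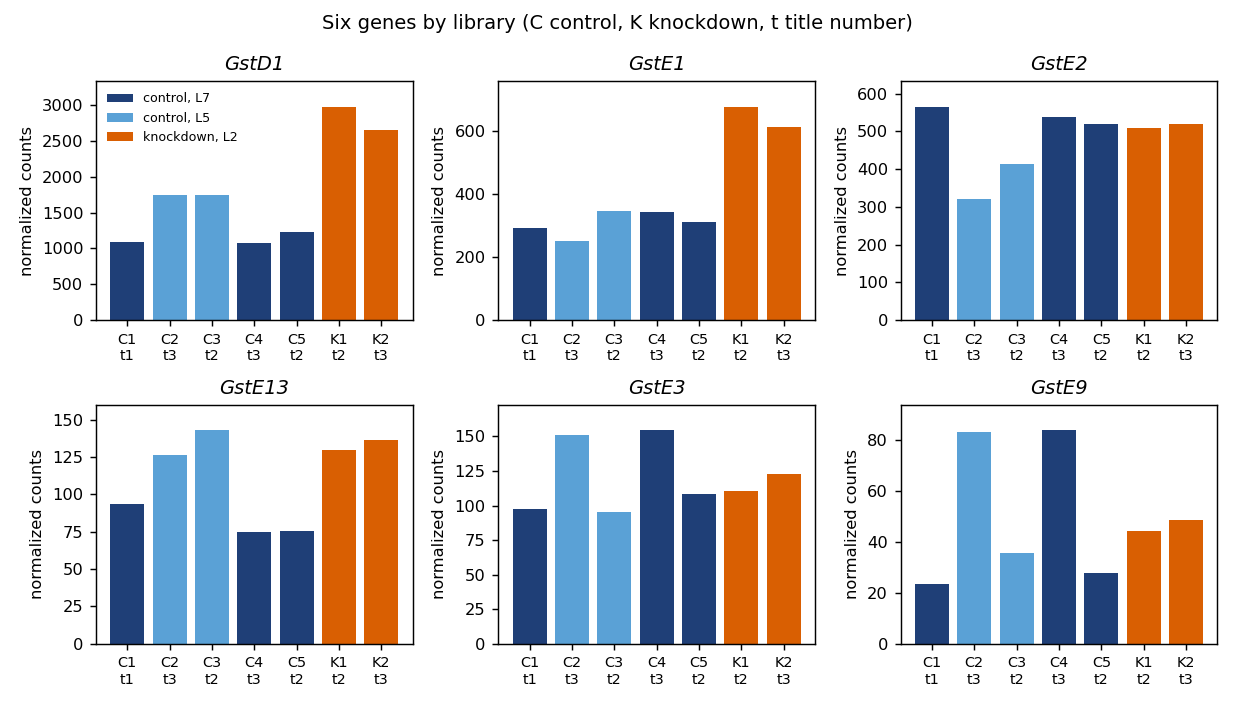
Normalized counts of 6 GST genes in each library, with control (C) and knockdown (K) replicate numbers and the title number (t) under each bar and codes L5, L7 and L2 as colours. GstD1 and GstE1 are highest in both knockdown libraries, GstE2 and GstE13 differ between L5 and L7 controls, and GstE3 and GstE9 are highest in the 2 controls of title number 3.

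The spread between control libraries was set against counting noise by an index of dispersion of the reads, which is 1 when reads vary only by sampling. The index was below 1 for 8 of the 21 tested genes, so their control spread was no larger than sampling gives. GstO2 (0.417), GstZ1 (0.577) and GstT2 (0.453) were among them. It was highest for GstD1 (91.5), GstE2 (24.5) and GstE9 (20.51). The median was 1.97 over the members and 3.87 over all genes tested, and for a given relative spread the index grows with the reads per gene. Among the tested genes the knockdown libraries had the largest ratio between them in GstE7, with 54.6 and 12.2 normalized counts (42 and 10 reads), where controls lay between 19.0 and 24.7.

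The summed level of fat body markers was higher in the knockdown libraries. Of the markers of other tissues, 2 of 4 tested muscle, 0 of 4 eye and 0 of 2 hemocyte markers passed. Over all genes tested, 6.11% passed. Of 9 fat body markers listed, 6 were measured and 5 tested, and 2 of these, fit and Yp3, rose, where 3.47% of all genes did. The fat body markers summed to 14938 to 35906 in controls and 50158 and 43997 in knockdown libraries, and Fbp1 was at 0 in some libraries. Most of this sum came from the yolk protein genes Yp1, Yp2 and Yp3. Their means were 8871, 10508 and 3285 in controls and 18336, 19099 and 8901 in knockdown libraries. The sex of the flies is not stated, so sex and fat body cannot be told apart in these markers. The part of fat body or of sex in the GstD1 and GstE1 values was not tested.

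The other genes of glutathione and conjugate handling are grouped here by role. Of 9 tested genes of glutathione synthesis and use, 0 passed, where 6.11% of all genes did. At an unadjusted limma p under 0.05 there were 2, where 25.5% of all genes had such a p. These were Cth (listed as Eip55E), which makes the precursor cysteine, at 26.98 ± 8.56 (SD, n = 5) and 51.6 ± 0.589 (SD, n = 2) normalized counts, and the glutaredoxin gene Grx1 (CG6852), at 186 ± 16.7 (SD, n = 5) and 135 ± 7.96 (SD, n = 2). Their log2 fold changes were 0.96 and -0.46 (limma, adjusted p = 0.0861 and 0.0895). In the analysis of 3 groups both passed against L7 controls (1.24 and -0.53, limma, adjusted p = 0.00203 and 0.00788). Against L5 controls neither passed (0.53 and -0.35, limma, adjusted p = 0.156 and 0.0927). Cth also differed between the control codes (L5 minus L7, 0.71, limma, adjusted p = 0.04). The subunits of glutamate cysteine ligase, the rate-limiting enzyme of glutathione synthesis, had log2 fold changes of 0.20 for Gclc and -0.18 for Gclm. The thioredoxin reductase gene Trxr1, whose product keeps glutathione reduced in flies, differed between the control codes (L5 minus L7, -0.91; limma, adjusted p = 6.4e-05).

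Of 4 tested regulators, cnc, Keap1, maf-S and ref(2)P, 0 passed, and 0 had an unadjusted limma p under 0.05, where 25.5% of all genes did. The gene of CncC itself, cnc, stood at 1122 ± 55.4 normalized counts in controls (SD, n = 5) and 1171 ± 112 in knockdown brains (SD, n = 2). Between the control codes (L5 minus L7) Keap1 (-0.99), ref(2)P (-0.80) and maf-S (0.48) differed (limma, adjusted p = 0.000782, 0.000188 and 0.0224), where 28.2% of all genes did. In the analysis of 3 groups Keap1 (-0.64) and ref(2)P (-0.55) were lower in knockdown than in L7 controls (limma, adjusted p = 0.00821 and 0.00157). There 18.5% of all genes were lower. Against L5 controls 0 of the 4 passed. Of 3 tested genes with a GST-like fold outside the rule, gfzf, fax and Clic, 0 passed. At an unadjusted limma p under 0.05 there were 2, where 25.5% of all genes had such a p. The neuronal gene fax (failed axon connections) had a log2 fold change of 0.29 and gfzf, a zinc finger gene, one of -0.64 (limma, adjusted p = 0.147 and 0.0894).

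Of 9 tested conjugate exporters and glucuronosyl transferases, 1 fell, 0 rose and 8 did not pass. Over all genes tested, 2.63% fell and 3.47% rose. Mrp4, an ABC transporter gene of the family that exports conjugates, held 70.0, 73.2, 60.1, 61.5 and 66.7 normalized counts in controls and 39.0 and 35.3 in knockdown libraries. It was 1.76-fold lower (log2 fold change -0.82 ± 0.17, SE; limma, adjusted p = 0.0298), with both knockdown values below every control. The call ended when knockdown replicate 1 (limma, adjusted p = 0.194) or 2 (0.192) or control replicate 1 (0.0672), 4 (0.0585) or 5 (0.0758) was left out. It also ended by voom (limma, adjusted p = 0.0532). Ugt35b, the highest listed glucuronosyl transferase gene on usable lines, stood at 776 ± 51.6 (SD, n = 5) and 603 ± 75.5 (SD, n = 2). This did not pass (log2 fold change -0.37, limma, adjusted p = 0.116), though both knockdown values were below every control. In the analysis of 3 groups it passed against L5 and L7 controls (-0.45 and -0.31, limma, adjusted p = 0.0174 and 0.038). Over all genes tested, 11.1% passed against both in the same direction.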

How the data were processed

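Brain RNA was extracted with Trizol, treated with DNase I and made into Cell-seq2 libraries adapted for bulk RNA, per the labels' protocols. The submitters' processing notes name STAR and the build dm6. How reads were counted, with or without strand or molecular identifiers, is not stated there. The deposited values are normalized counts, a signal that the authors scaled by 1 factor per library. Every value above 0 on usable lines was a whole multiple of 1 step per library (100% within 0.001 of a read), which gave the reads and the depth. Median-of-ratios factors recomputed from these reads matched the deposited scaling. Left out were 2139 misplaced lines, 1 line with a damaged name and 402 columns that match no sample, so Gss1, Trx2, Hr96, eEF1gamma, MRP and some markers are not analysed here. All 35 GST symbols matched Ensembl BDGP6.

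The 7287 genes whose mean reached 10 normalized counts were compared with limma 3.58.1 in R 4.3.3 on log2(value + 1), which understates changes of low genes. The fit used a mean-variance trend, no covariates and Benjamini-Hochberg adjustment over all genes, at a threshold of 0.05. A fit with L5 controls, L7 controls and knockdown as 3 groups gave the comparisons by code. The test was checked on simulated data. The members and lists were chosen with earlier results of these data known, and some older symbols were matched to list genes after the table was read. By the rule for named genes, values in every library are given for members past the test, the 2 highest of each class, GstE1 and members with an outlying control. Other members and list genes, the ratios, the index of dispersion and the genes of the bar plots were picked after values were seen. Intervals and the limit for 0 reads (3 reads) cover counting error only. No libraries were merged: comparing reads of each library pair, chi-square had a median over genes of 0.977 to 1.23 within a code and 2.84 to 4.64 between codes. Counting noise alone gives a median below both ranges, so libraries of the same code also differed by more than sampling. The planned edgeR and DESeq2 alternatives were not run.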

Additional observations from a re-analysis of the deposited data

Results flagged for a closer look

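One result stood out among 22 groups of 5 controls searched for a library far from the others (the 21 tested GST genes and Mrp4). In control replicate 4 GstO2 held 214 normalized counts, against 191 to 195 in the other 4 controls, a gap of 0.844 of the whole range where 0.71 is the limit. Chance flags about 1 in 20 such groups. The index of dispersion of GstO2 in controls was 0.417, so its control spread was no larger than sampling gives.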

How the results depend on the processing

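Of the 21 tested GST genes, GstD1 passed in 13 and GstE1 in 16 of 19 alternatives, and both were higher in all 19. The number of GST genes that rose, 2, became 5 with L7 controls only and 4 with same-titled controls averaged, and ranged from 0 to 2 when 1 library was left out. The number that fell, 0, became 1 (GstT4) with L5 controls only and with L7 controls only, and was 0 to 0 without any 1 library. A replicate block by title number, which takes control replicate 1 out of the estimate, left 0 GST genes, with GstD1 at an adjusted p of 0.103 and GstE1 at 0.0523. A replicate block by source name number left both. That block takes control replicates 3, 4 and 5 out of the estimate, so it rests on control replicates 1 and 2 alone. Mrp4 lost its call under both blocks (limma, adjusted p = 0.115 by title number and 0.135 by source name number). Over all genes the rises, 253, and falls, 192, became 648 and 434 with L5 controls only, 1070 and 1339 with L7 controls only, 620 and 538 with same-titled controls averaged, 33 and 18 with the block by title number and 83 and 37 with that by source name number. Voom gave 101 falls. Without 1 library rises ranged from 1 to 362 and falls from 0 to 301. The difference of knockdown libraries by title number correlated with that of controls at r = 0.127 (L5) and 0.0143 (L7) across 7287 genes, so title number was not taken as a pairing. Some members changed sign. GstE13, at 0.42 against all controls, became -0.013 with L5 controls only. GstE2 became -0.071 with L7 controls only. GstE9 became -0.23 with L5 controls only and -0.15 with the title block. GstE3 became 0.022 with same-titled controls averaged. GstT3 became 0.00422 with L5 controls only and 0.11 with the source name block. GstT1 became 0.00585 by voom. Without 1 library the log2 fold change ranged from -0.10 to 0.069 for GstE3, -0.79 to 1.29 for GstE7, -0.15 to 0.30 for GstE9, -1.75 to 0.057 for GstO3 and -0.092 to 0.034 for GstT1. The cause was not tested. Dividing levels by transcript length kept 6 of the 8 highest genes. Few reads limit the low members. Count tests by edgeR and DESeq2 were not run.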
